A study of Schizosaccharomyces pombe with 16 samples.

Results

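Long non-coding RNAs of fission yeast that lie antisense to exactly 1 annotated feature were followed through 8 strains of Schizosaccharomyces pombe. They were the rows of the deposited expression table whose identifier carries the SPNCRNA prefix and whose antisense column names a single feature, with 12 transcripts left out by name, 11 of which had a single partner. This left 831 RNAs of the 7022 features in the table, or of its 1553 SPNCRNA rows. A further 332 non-coding RNAs were antisense to several features and 378 had no antisense partner. The strains differed in the heptad repeat of the carboxy-terminal domain (CTD) of rpb1, the largest subunit of RNA polymerase II: Y1F, S2A, T4A and S7A, the double mutants Y1F-S7A, S2A-S7A and T4A-S7A, and WT, the strain labelled rpb1CTD-WT 1-18, with no substitution named. The letters give the residue, its place in the repeat and the residue that replaced it. Every strain carried ade6, ura4-D18 and leu1-32. The S2A strain was h+ and the other 7 strains were h-, so mating type and substitution cannot be told apart in S2A against WT. For that reason S2A-S7A was also set against S7A, a pair of h- strains that differ in S2A.

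Each strain was grown in 2 cultures in rich YES medium at 30 °C to mid-log density, and polyadenylated RNA was sequenced as stranded libraries. The 16 libraries held between 18677921 and 31254978 counts, of which 1.38 to 2.108% fell on the antisense RNAs. With 2 cultures a strain, the p-values measure the spread between those cultures.

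Serine, threonine and tyrosine residues of the CTD gain and lose phosphate as the polymerase moves along a gene, and the modified repeats recruit capping, splicing, 3' processing and chromatin factors. Antisense transcripts of fission yeast arise from divergent promoters, from promoters inside genes or from readthrough of a neighbour that ends toward them. Many are normally kept low by histone deacetylases, chromatin remodellers, termination factors and the nuclear exosome. Some such RNAs are known to repress the gene they overlap, and others have no known effect on it.

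The sequence at the annotated start is given for 11 RNAs on which the results turn, 4 that rose in S2A, 1 that rose in S2A-S7A over S7A (SPNCRNA.691), 3 that rose in S2A-S7A while their partner fell, and 3 that fell in S2A. Of 18 named RNAs whose start window was read, these are the 11 with no base of an untranslated region in it. Each run reads 5' to 3' on the strand of the RNA, with 60 bases before the annotated start in lower case and the first 60 bases of the RNA in capitals. The bases come from the RefSeq genome, build ASM294v3. The build of the deposited table is not given in the sources used here, but all 171 nuclear tRNA features that matched the reference, and 761 of the 831 RNAs, had identical coordinates in it.
SPNCRNA.1181: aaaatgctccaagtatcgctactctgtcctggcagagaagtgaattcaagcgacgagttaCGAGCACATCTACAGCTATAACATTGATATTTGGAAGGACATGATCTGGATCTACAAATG
SPNCRNA.1206: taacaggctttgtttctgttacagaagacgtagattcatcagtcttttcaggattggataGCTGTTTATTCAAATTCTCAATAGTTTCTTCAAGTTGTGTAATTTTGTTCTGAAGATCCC
SPNCRNA.1005: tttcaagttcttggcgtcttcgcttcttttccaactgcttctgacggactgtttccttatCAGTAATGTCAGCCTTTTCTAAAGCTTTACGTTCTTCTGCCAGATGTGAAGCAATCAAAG
SPNCRNA.799: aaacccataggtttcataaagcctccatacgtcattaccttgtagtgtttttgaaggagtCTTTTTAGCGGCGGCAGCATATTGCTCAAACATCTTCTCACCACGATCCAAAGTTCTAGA
SPNCRNA.691: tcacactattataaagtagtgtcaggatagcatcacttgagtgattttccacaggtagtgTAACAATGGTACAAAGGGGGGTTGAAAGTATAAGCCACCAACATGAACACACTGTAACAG
SPNCRNA.1126: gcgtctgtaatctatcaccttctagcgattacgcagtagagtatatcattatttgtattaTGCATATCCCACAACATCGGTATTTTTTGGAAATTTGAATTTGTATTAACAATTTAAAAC
SPNCRNA.554: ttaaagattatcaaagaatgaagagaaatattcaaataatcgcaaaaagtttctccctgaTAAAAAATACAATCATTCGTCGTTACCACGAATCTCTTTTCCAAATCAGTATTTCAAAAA
SPNCRNA.761: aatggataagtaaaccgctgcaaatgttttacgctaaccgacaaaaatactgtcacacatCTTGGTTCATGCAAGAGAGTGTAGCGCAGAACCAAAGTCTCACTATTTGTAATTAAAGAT
SPNCRNA.1338: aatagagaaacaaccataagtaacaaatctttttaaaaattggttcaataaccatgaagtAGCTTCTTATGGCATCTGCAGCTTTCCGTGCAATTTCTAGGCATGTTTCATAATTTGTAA
SPNCRNA.613: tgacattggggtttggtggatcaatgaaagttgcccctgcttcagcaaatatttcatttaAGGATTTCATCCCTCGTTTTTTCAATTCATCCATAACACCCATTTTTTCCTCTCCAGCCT
SPNCRNA.1417: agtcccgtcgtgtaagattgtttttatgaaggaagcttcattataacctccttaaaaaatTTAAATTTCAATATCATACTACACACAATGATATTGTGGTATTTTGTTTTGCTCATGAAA
The windows of SPNCRNA.1181 (chrIII:1241876-1241995, plus strand), SPNCRNA.1206 (chrIII:1570698-1570817, minus strand), SPNCRNA.1005 (chrI:4621566-4621685, minus strand) and SPNCRNA.799 (chrI:2148366-2148485, minus strand) lay with all 120 bases in coding sequence, so the annotated starts of these 4 RNAs are inside the body of a gene. The same held for SPNCRNA.691 (chrI:837203-837322, minus strand), SPNCRNA.1338 (chrII:309568-309687, minus strand) and SPNCRNA.613 (chrI:148302-148421, plus strand). The windows of SPNCRNA.1126 (chrIII:293241-293360, minus strand), SPNCRNA.554 (chrI:1219192-1219311, plus strand) and SPNCRNA.1417 (chrII:1160789-1160908, minus strand) held no base of an mRNA exon, and that of SPNCRNA.761 (chrI:1776344-1776463, minus strand) had 112 of 120 bases outside one. In the 60 bases before the start, 1 of the 11 runs holds TATAAA, that of SPNCRNA.691 at position -51 from the start, and the other 10 do not. Over all 831 RNAs, 9.87% held TATAAA in the 100 bases before the start on the strand of the RNA, beside 12.5% of all nuclear features in a window of the same length.

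The RNAs were moderate in length, with a median of 1038 bases and a range of 71 to 4984, and shared a median of 808 bases with their partner. The partner was protein-coding for 637, another non-coding RNA for 182 and of another kind for 12, and 43 partners had names given to meiosis genes. By position, 295 overlapped the 5' end of the partner with their own 5' end, 291 lay wholly inside the partner, 167 overlapped it at the 3' ends and 78 enclosed it. In the 291 nested RNAs the annotated start lay at a median of 79.8% of the way along the partner, near its 3' end. The RNAs were not all separate measurements, since 73 partners were shared by 2 or 3 of them, 151 RNAs in all, 66 had a partner that is itself among the 831, and 122 shared at least 50% of their length with another feature on the same strand.

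A low-count filter applied to the whole table kept 759 of the 831. The 72 that did not pass had at most 83 reads summed over the 16 libraries, and 8 had none. The mean level over the libraries, scaled to library size and length (RPKM), had quartiles of 2.02, 4.31 and 8.72 over the tested RNAs, while their partners had a median of 19.5 RPKM. In 199 of the 759 the antisense RNA stood above its partner. In 80 it stood under 2% of the partner's level. How the counting assigned reads to a strand is not given in the sources used here, so a small share of partner reads counted on the antisense strand was not tested as a part of those low values. Among 49 RNAs nested in a partner of 50 RPKM or more, the lowest was SPNCRNA.1376 at 0.0027% of its partner, and 9 stood under 0.5%.

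The highest levels belonged to SPNCRNA.53, SPNCRNA.1261, SPNCRNA.1259, SPNCRNA.03 and SPNCRNA.964, with mean RPKM values of 4520, 438, 320, 319 and 227. SPNCRNA.53 shares at least 50% of its length with the coding gene SPAC27E2.11c on the same strand and overlaps its partner by 183 bases, and SPNCRNA.03 likewise shares its length with SPAC806.11, so their counts may belong in part to those genes. SPNCRNA.1261 lies antisense to rps20, a protein of the small ribosomal subunit, and SPNCRNA.964 to the meiosis-named mug56. Of these 5, SPNCRNA.1259 alone passed a comparison test, with 458 and 340 CPM (counts scaled to library size) in S2A and 199 and 197 CPM in WT, a log2 fold change of 1.01 ± 0.22 (SE, adjusted p = 0.0102). That call was lost without S2A replicate 1 (adjusted p = 0.11), without WT replicate 1 (adjusted p = 0.0667) and without WT replicate 2 (adjusted p = 0.0738).

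The 2 strains with Ser2 replaced by alanine stood apart in these RNAs. By the mean CPM of each strain, S2A was the highest of the 8 strains for 237 of the 759 tested RNAs (31.2%) and S2A-S7A for 221 (29.1%), whereas over all 6420 features tested those shares were 18.3% and 16.0%. T4A was the highest for 22 (2.9%) and the lowest for 198 (26.1%), where it was the highest for 14.6% and the lowest for 12.7% of all features. T4A-S7A was the lowest for 173 (22.8%), beside 12.7% of all features. The median RPKM over the 831 RNAs ran from 4.83 to 5.95 in the 4 libraries of S2A and S2A-S7A, from 2.73 to 3.19 in the 4 libraries of T4A and T4A-S7A, and from 3.46 to 4.40 in the 8 other libraries, WT included. In 1 joint test of any difference among the 8 strains, 317 of the 759 passed an adjusted p of 0.05. That is 41.8%, beside 22.3% of all features. With the replicate number as a block 472 passed, or 62.2%, beside 57.9% of all features.

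The 321 tested non-coding RNAs antisense to several features had 62 (19.3%) that rose in S2A, 69 (21.5%) that rose in S2A-S7A against WT and 62 (19.3%) that rose in S2A-S7A over S7A. Their median log2 fold change in T4A against WT was -0.26. The 241 tested non-coding RNAs with no antisense partner had a median of -0.43 there and -0.42 in T4A-S7A against WT. The RNAs antisense to 1 feature had -0.29 and -0.14. Medians below 0 in T4A were thus not limited to antisense RNAs. Of the 241, 16 (6.64%) rose in S2A, 33 (13.7%) in S2A-S7A against WT and 31 (12.9%) in S2A-S7A over S7A. Differences between the classes were not tested.

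**Figure D1:**
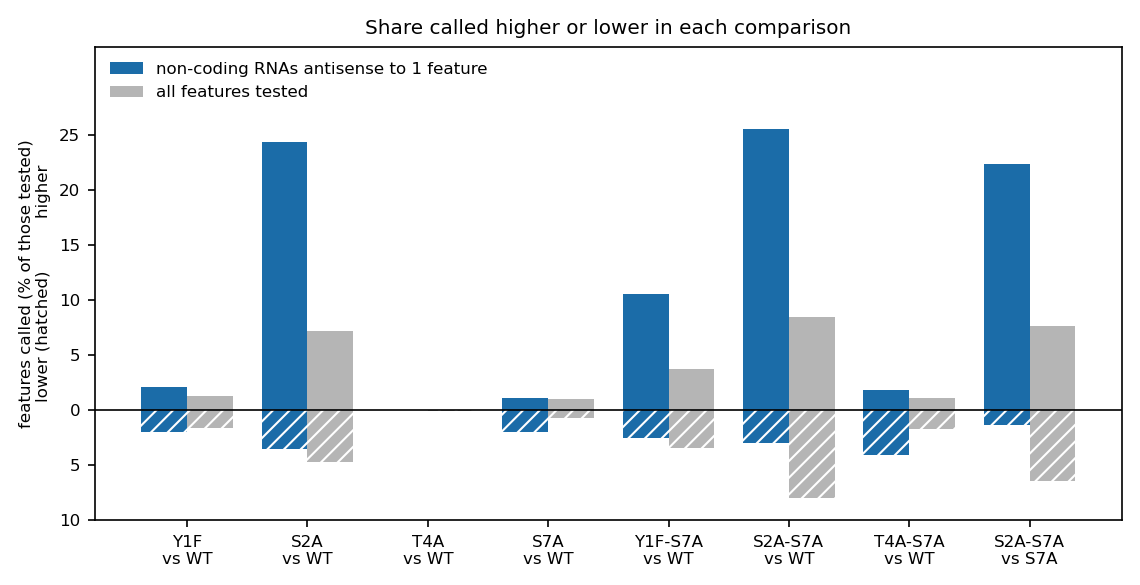
Share of the tested non-coding RNAs antisense to 1 feature (blue, 759 RNAs) and of all 6420 features tested (grey) called higher (upward, plain) or lower (downward, hatched) at an adjusted p under 0.05 in each of 8 comparisons of strains. In S2A against WT, S2A-S7A against WT and S2A-S7A against S7A between 22.4 and 25.6% of the antisense RNAs were higher and at most 3.56% lower, and in T4A against WT none was called.

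In S2A against WT, 185 of the 759 tested RNAs rose and 27 fell. Over all features, 7.17% rose and 4.72% fell. The median log2 fold change of the antisense RNAs was 0.48, that of all features -0.01, and 522 of the 759 lay above 0. The count of 212 called became 129, 138 and 130 when S2A replicate 1, WT replicate 1 or WT replicate 2 was left out, and 100 RNAs were called in each of the 4 fits that leave out 1 library. With the replicate number as a block, 271 rose and 49 fell. Together these were 42.2% of the 759, where 29.4% of all features were called.

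Largest by the naming rule was SPNCRNA.1181 (chrIII:1241936-1244247, plus strand), antisense to rgf3, which encodes an exchange factor for the GTPase Rho1 needed at the division septum. It had 29.3 and 31.3 CPM in the S2A libraries and 0.685 and 0.258 CPM in the WT libraries, a log2 fold change of 6.0 ± 0.57 (adjusted p = 6.4e-05), while rgf3 had 43.4 and 32.9 CPM in S2A and 45.1 and 34.4 CPM in WT (-0.06 ± 0.25, adjusted p = 0.924). Both S2A libraries of SPNCRNA.1181 were thus far above both WT libraries, and those of its partner overlapped. The double mutants were intermediate, with 14.3 and 22.5 CPM in S2A-S7A and 4.2 and 6.9 CPM in Y1F-S7A.

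SPNCRNA.569 (chrII:1182610-1184243, minus strand) lies inside trm734, a tRNA methyltransferase subunit, and had 22.7 and 28.8 CPM in S2A and 0.96 and 1.46 CPM in WT (4.40 ± 0.40, adjusted p = 4.8e-05). SPNCRNA.1577 (chrII:3034427-3035817, minus strand), inside taf51, which encodes a subunit of the general transcription factor TFIID, had 25.7 and 31.6 CPM in S2A and 1.83 and 1.07 CPM in WT (4.30 ± 0.39, adjusted p = 5.0e-05). For neither did the partner's libraries separate, trm734 changing by -0.01 ± 0.12 and taf51 by 0.04 ± 0.10 with adjusted p = 0.972 and 0.872. SPNCRNA.1206 (chrIII:1565774-1570757, minus strand), the longest of the 831 RNAs at 4984 bases, runs inside nup211, a nuclear pore protein, and had 47.3 and 40.6 CPM in S2A and 2.74 and 3.91 CPM in WT (3.72 ± 0.28, adjusted p = 1.5e-05). Its partner differed by 0.02 ± 0.25 (adjusted p = 0.975). In each of these 4 pairs the antisense RNA rose while the partner's change was smaller than its standard error.

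SPNCRNA.1005 (chrI:4619539-4621625, minus strand) and SPNCRNA.799 (chrI:2146730-2148425, minus strand) differed from these in that their partners fell. SPNCRNA.1005 had 47.7 and 41.5 CPM in S2A and 3.34 and 3.48 CPM in WT (3.71 ± 0.31, adjusted p = 2.9e-05). Its partner hca4, named for a helicase of ribosome assembly in Saccharomyces cerevisiae, had 160 and 159 CPM in S2A and 227 and 234 CPM in WT (-0.53 ± 0.11, adjusted p = 0.00769), a call lost without S2A replicate 1 (adjusted p = 0.0552), S2A replicate 2 (adjusted p = 0.0594) or WT replicate 2 (adjusted p = 0.0516). The nearest feature upstream of SPNCRNA.1005 on its own strand, dhc1, ends 540 bases away and rose as well (1.26, adjusted p = 0.00303). SPNCRNA.799 had 14.5 and 18.6 CPM in S2A and 1.05 and 1.63 CPM in WT (3.61 ± 0.39, adjusted p = 0.00011), and its partner ala1, the alanyl-tRNA synthetase gene, had 271 and 268 CPM in S2A and 471 and 408 CPM in WT (-0.71 ± 0.18, adjusted p = 0.0231), a call that was lost without any one of the 4 libraries (adjusted p from 0.0503 to 0.14).

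**Figure D2:**
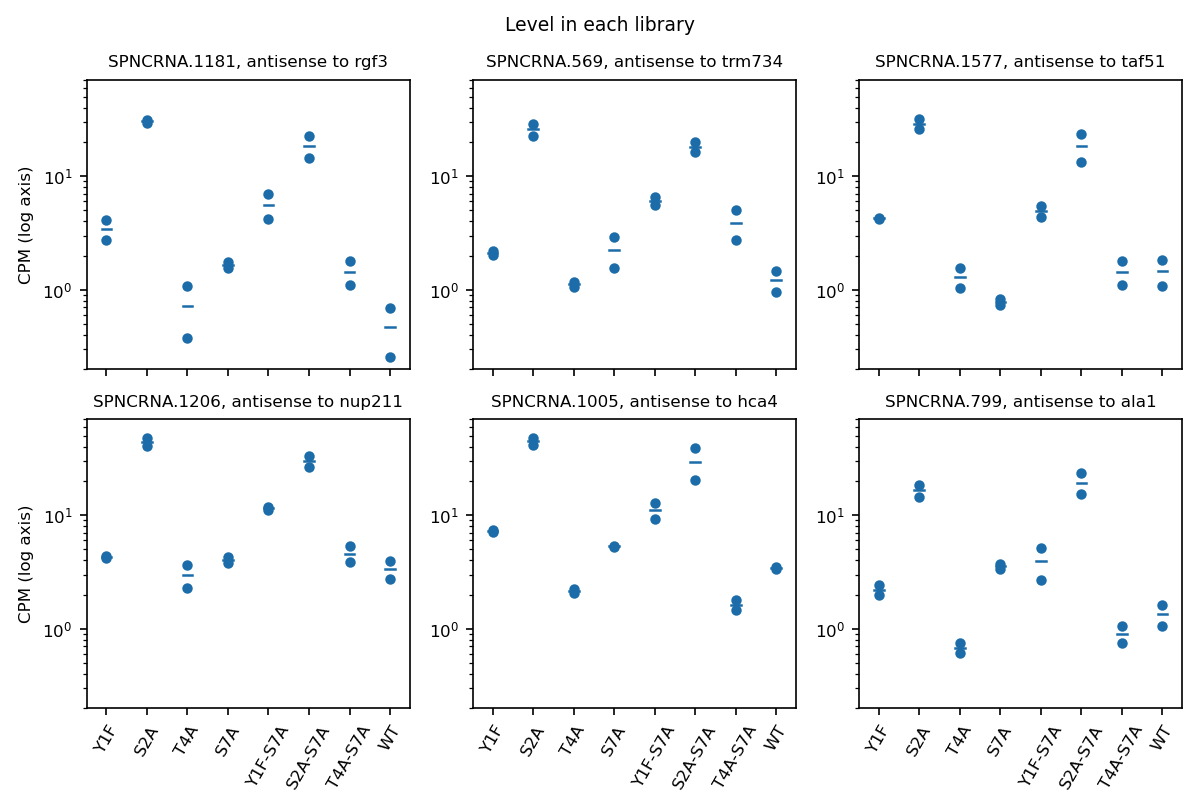
CPM of the 6 antisense RNAs with the largest increase in S2A against WT by the naming rule, in each of the 2 libraries (points) of the 8 strains, with the strain mean as a bar, on a log axis. S2A and S2A-S7A hold the 4 highest libraries of every panel, between 13.4 and 47.7 CPM, and the WT libraries lie between 0.258 and 3.91 CPM.

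The 27 RNAs that fell in S2A included SPNCRNA.1488 (chrII:2123317-2125438, plus strand), with 5.73 and 9.66 CPM in S2A and 45.8 and 59.4 CPM in WT (-2.78 ± 0.26, adjusted p = 5.8e-05). It lies on the arm that carries the mating-type loci, and S2A is the h+ strain, so its change in S2A cannot be told apart from mating type. In S2A-S7A, which is h- as WT is, it had 20.8 and 24.9 CPM, against those WT values (-1.20 ± 0.24, adjusted p = 0.00618). SPNCRNA.1417 (chrII:1158658-1160848, minus strand), antisense to the 3' part of the meiosis-named meu18, had 3.45 and 2.26 CPM in S2A and 10.9 and 12 CPM in WT (-2.0 ± 0.29, adjusted p = 0.00082). Its partner meu18 rose, with 129 and 97.9 CPM in S2A and 74.8 and 66.1 CPM in WT (0.69 ± 0.19, adjusted p = 0.0316), a call lost without S2A replicate 1 (adjusted p = 0.262), WT replicate 1 (adjusted p = 0.0876) or WT replicate 2 (adjusted p = 0.184). SPNCRNA.1316, which overlaps the 5' end of thi7, had 5.49 and 4.56 CPM in S2A and 18.3 and 18 CPM in WT (-1.85 ± 0.32, adjusted p = 0.00254). SPNCRNA.1338 had 2.9 and 4.96 CPM in S2A and 14.4 and 16.6 CPM in WT (-1.99 ± 0.41, adjusted p = 0.0074), a call lost without S2A replicate 1 (adjusted p = 0.09). SPNCRNA.613, inside the DJ-1 family gene hsp3102, had 3.58 and 5.28 CPM in S2A and 13.3 and 17.5 CPM in WT (-1.80 ± 0.38, adjusted p = 0.00921), a call lost without S2A replicate 1 (adjusted p = 0.105) or WT replicate 2 (adjusted p = 0.0688).

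Position along the partner went with the share that rose in S2A. Of the tested RNAs nested in their partner, 88 of 256 rose, with a median log2 fold change of 0.88, whereas 32 of 147 rose where the 3' ends overlap, 51 of 280 where the 5' ends overlap and 14 of 76 where the RNA encloses its partner. By partner, 177 of 599 RNAs antisense to a protein-coding gene rose, against 8 of 150 antisense to another non-coding RNA, and that last share, 5.33%, lay below the 7.17% of all features. The kinds differed in level too, since tested RNAs opposite a coding gene had a median of 4.08 RPKM and those opposite a non-coding RNA 5.22 RPKM, and the shares of the classes were not tested against each other. With the replicate block, 124 of 256 nested RNAs rose, beside 52 of 147 where the 3' ends overlap and 73 of 280 where the 5' ends overlap. Of those that enclose their partner, 22 of 76 rose with the block. So did 253 of 599 opposite a coding gene and 17 of 150 opposite a non-coding RNA, where 15.4% of all features rose. Partners named for meiosis had 5 of 40 tested RNAs that rose, and all other partners 180 of 719. RNAs that rose in S2A were longer (median 1370 bases) and had a partner of higher level (median 27.5 RPKM) than those not called (1021 bases and 15.2 RPKM), and their median GC content was 37.1%, against 35.1%. Those lengths and levels also set how many reads an RNA has for a test to work with. Of the 80 RNAs under 2% of their partner's level, 16 rose, and of the other 679, 169 rose.

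**Figure D3:**
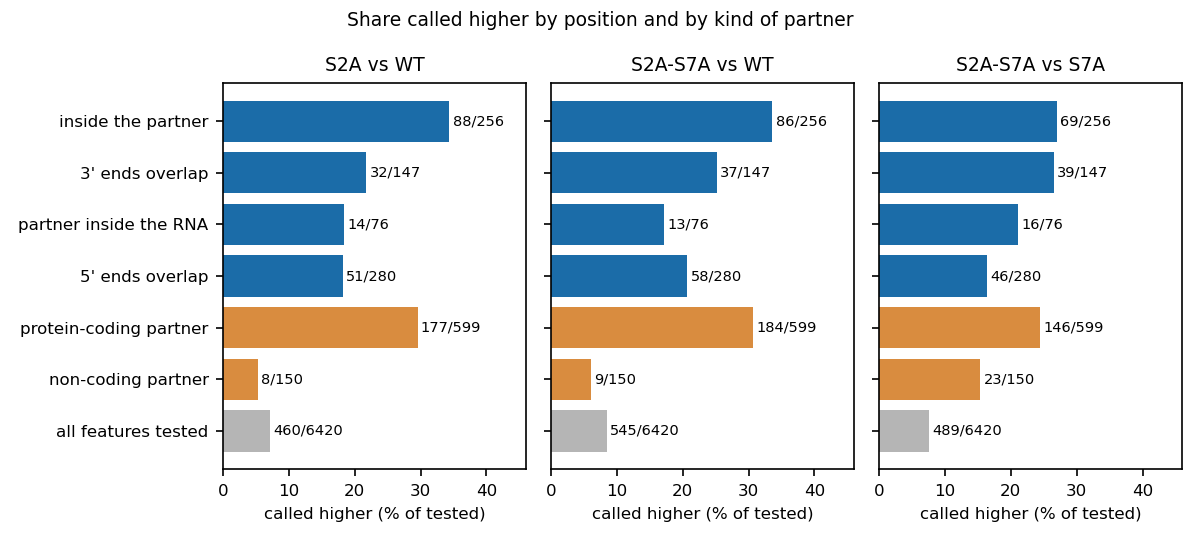
Percent of tested antisense RNAs called higher, by position relative to the partner (blue) and by kind of partner (orange), beside all features tested (grey), in S2A against WT, S2A-S7A against WT and S2A-S7A against S7A. Counts of called and tested RNAs stand at the bars, and nested RNAs have the highest share in the first 2 panels, with 88 and 86 of 256 called higher, while in the third their 69 of 256 lies close to 39 of 147 at overlapping 3' ends.

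In S2A-S7A against WT, 194 antisense RNAs rose and 23 fell, where 8.49% of all features rose and 8.04% fell. Their median was 0.57, and 559 of 759 lay above 0. The 217 calls became 121, 126 and 116 when S2A-S7A replicate 2, WT replicate 1 or WT replicate 2 was left out, and 87 were called in every one of the fits with 1 library left out. The fit with the replicate block called 344, or 45.3% of the 759, beside 37.9% of all features. SPNCRNA.1529 (chrII:2571145-2573169, minus strand), inside orc1, which encodes a subunit of the origin recognition complex, had 28.3 and 39.5 CPM in S2A-S7A and 2.38 and 3.95 CPM in WT (3.42 ± 0.32, adjusted p = 9.3e-05). The partner orc1 had 84.6 and 91.1 CPM in S2A-S7A and 112 and 113 CPM in WT (-0.36 ± 0.11, adjusted p = 0.0397), a call lost without any one of the 4 libraries (adjusted p from 0.0834 to 0.159). SPNCRNA.1294 (chrIII:2388207-2389852, plus strand), antisense to the 3' part of spx2, had 34.1 and 77.4 CPM in S2A-S7A and 5.9 and 4.47 CPM in WT (3.43 ± 0.45, adjusted p = 0.00049). Its 2 S2A-S7A libraries differed from each other by more than the 2 of WT but lay above both. At the other end, SPNCRNA.1338 had 2.5 and 2.97 CPM in S2A-S7A and 14.4 and 16.6 CPM in WT (-2.51 ± 0.42, adjusted p = 0.00208), and its partner SPBC1773.12 fell with it, with 1.73 and 1.83 CPM in S2A-S7A and 6.49 and 7.65 CPM in WT (-1.99 ± 0.38, adjusted p = 0.00473).

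Set against S7A, the strain of the same mating type, S2A-S7A had 170 antisense RNAs that rose and 10 that fell, against 7.62% and 6.5% of all features. The median was 0.52 and 555 of 759 lay above 0. The 180 calls became 97, 83 and 101 when S7A replicate 1, S7A replicate 2 or S2A-S7A replicate 2 was left out. In all 4 such fits 72 were called. With the replicate block 276 were called, or 36.4% of the 759, close to the 33.4% of all features. This comparison shares no library with S2A against WT. Of the 185 RNAs that rose in S2A and the 170 that rose in S2A-S7A over S7A, 115 were the same, 62.2% of the first list and 67.6% of the second, and 182 of the 185 had a log2 fold change above 0 in the second comparison. Of the 27 that fell in S2A and the 10 that fell in S2A-S7A over S7A, 6 were the same. The same overlaps over all features are not given, so whether they are particular to these RNAs was not tested. By position, 69 of 256 nested RNAs rose, 39 of 147 at overlapping 3' ends, 46 of 280 at overlapping 5' ends and 16 of 76 that enclose their partner. With the replicate block the order differed, with 61 of 147 at overlapping 3' ends, 28 of 76 that enclose their partner and 93 of 256 nested. RNAs opposite a non-coding partner rose in 23 of 150 cases here, and those opposite a coding gene in 146 of 599.

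SPNCRNA.1577, the taf51 antisense RNA, had 13.4 and 23.6 CPM in S2A-S7A and 0.734 and 0.833 CPM in S7A, a log2 fold change of 4.56 ± 0.41 (adjusted p = 8.0e-05). SPNCRNA.691 (chrI:836307-837262, minus strand), inside atg22, a vacuolar membrane transporter gene, had 14.4 and 32 CPM in S2A-S7A and 1.8 and 2.16 CPM in S7A (3.55 ± 0.45, adjusted p = 0.00057). SPNCRNA.1661 (chrII:4054164-4055996, minus strand), antisense to the 3' part of cwf10, a spliceosomal GTPase gene, had 12.3 and 19 CPM in S2A-S7A and 1.14 and 1.86 CPM in S7A (3.40 ± 0.36, adjusted p = 0.00021). None of their partners passed the test there, with taf51 at -0.06, atg22 at -0.32 and cwf10 at -0.25, although with the replicate block atg22 (adjusted p = 0.021) and cwf10 (adjusted p = 0.033) passed.

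Pairs were counted once for each antisense RNA, so RNAs that are each other's partner enter from both sides. Of 742 pairs with both sides tested, S2A against WT had 19 with both called, 13 in opposite and 6 in the same direction. Of the 13, 10 were an RNA that rose over a partner that fell. In S2A-S7A against WT, 29 pairs were opposite, 25 of them with the RNA higher and the partner lower, and 10 were alike. In S2A-S7A against S7A, 19 were opposite and 15 alike. Among RNAs that rose and had a tested partner, the partner fell for 10 of 183, 25 of 192 and 17 of 165, in that order. Over all features 4.72, 8.04 and 6.5% fell, and over protein-coding features 5.11, 9.59 and 7.99%. Most called RNAs were ones that rose, and an excess of opposite pairs over that background was not tested. With the replicate block the partner was called beside 89 of 316 called RNAs in S2A against WT, 146 of 340 in S2A-S7A against WT and 109 of 271 in S2A-S7A against S7A. Of those pairs 55, 94 and 63 were opposite and 34, 52 and 46 alike. Over all features, 29.4%, 37.9% and 33.4% were called with the block in those comparisons. Opposite pairs in S2A against WT became 3, 8, 5 and 4 without S2A replicate 1, S2A replicate 2, WT replicate 1 and WT replicate 2, and in S2A-S7A against WT 9, 14 and 11 without S2A-S7A replicate 2, WT replicate 1 and WT replicate 2. Across the 742 pairs, Spearman's rho between the RNA's and the partner's log2 fold change was 0.001 in S2A against WT and -0.09 in S2A-S7A against WT, across pairs that share libraries, so it is given as a description. Among the 183 RNAs that rose in S2A and had a tested partner, the partner's change lay below 0 in 52.5%, beside 50.1% of all pairs. Among the 192 that rose in S2A-S7A against WT it lay below 0 in 66.7%, beside 51.6% of all pairs. Over S7A, where rho was -0.03, it lay below 0 in 53.9% of 165, beside 51.2% of all pairs.

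**Figure D4:**
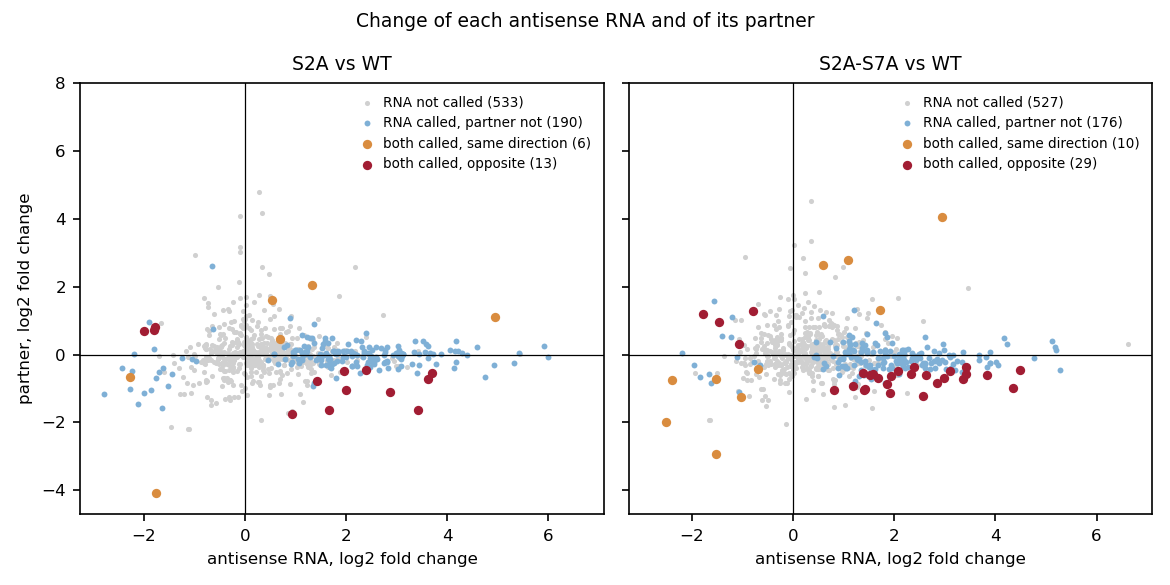
Log2 fold change of each antisense RNA (horizontal) and of its partner (vertical) for 742 pairs in S2A against WT and S2A-S7A against WT, coloured by whether the RNA alone or both sides were called at an adjusted p under 0.05. Most called RNAs lie right of 0 near a partner change of 0, and 13 and 29 pairs were called in opposite directions.

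Among the opposite pairs, SPNCRNA.1033 (chrI:4875424-4878190, minus strand) and ceo5 were called in both comparisons of S2A-S7A. SPNCRNA.1033 had 26 and 34 CPM in S2A-S7A and 2.33 and 3.52 CPM in WT (3.35 ± 0.35, adjusted p = 0.00015), and ceo5 had 104 and 101 CPM in S2A-S7A and 171 and 168 CPM in WT (-0.73 ± 0.11, adjusted p = 0.00089). Against S7A, with 5.14 and 5.68 CPM of the RNA and 156 and 153 CPM of ceo5, both passed again (2.47 ± 0.33, adjusted p = 0.00068, and -0.59 ± 0.11, adjusted p = 0.00337). Both calls held without any single library in either comparison.

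SPNCRNA.1126 (chrIII:289992-293300, minus strand) covers the 3' part of ria1, whose Saccharomyces cerevisiae counterpart is a GTPase of large ribosomal subunit maturation. It had 18 and 16.1 CPM in S2A-S7A and 5.44 and 5.93 CPM in WT (1.58 ± 0.22, adjusted p = 0.00062), and ria1 had 65.6 and 66.4 CPM in S2A-S7A and 96.8 and 98.3 CPM in WT (-0.56 ± 0.10, adjusted p = 0.00291). SPNCRNA.761 (chrI:1774296-1776403, minus strand), over the 3' part of ucp7, had 29.9 and 26 CPM in S2A-S7A and 9.99 and 9.16 CPM in S7A (1.55 ± 0.21, adjusted p = 0.00073). Its partner had 41.7 and 56.1 CPM in S2A-S7A and 89.5 and 89.6 CPM in S7A (-0.87 ± 0.17, adjusted p = 0.00597). SPNCRNA.554 (chrI:1219252-1220071, plus strand), at the 3' end of nht1, a subunit gene of the INO80 remodelling complex, had 5.53 and 5.73 CPM in S2A-S7A and 0.991 and 1.18 CPM in S7A (2.38 ± 0.39, adjusted p = 0.00204). There nht1 had 29 and 31.8 CPM in S2A-S7A and 55.3 and 49.3 CPM in S7A (-0.78 ± 0.14, adjusted p = 0.00377). Against WT, with 0.366 and 0.43 CPM of the RNA and 32.4 and 32.2 CPM of nht1, SPNCRNA.554 rose as well (3.80 ± 0.43, adjusted p = 0.00021) while nht1 did not pass (-0.09 ± 0.14, adjusted p = 0.744). The S7A libraries had the highest nht1 levels of the 8 strains, so the opposite direction of this pair was seen against S7A and not against WT. In all 4 of these pairs the RNA and its partner overlap at their 3' ends. That was not so for most opposite pairs. Of the 29 in S2A-S7A against WT, 9 overlapped at the 3' ends, 7 at the 5' ends and 13 were nested. Over S7A the 19 opposite pairs split as 8, 4 and 7 in that order.

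In S2A, SPNCRNA.991 (chrI:4472218-4473227, minus strand), which overlaps the 5' end of the transporter gene mfs1, had 19.5 and 17.7 CPM in S2A and 5.62 and 3.7 CPM in WT (2.0 ± 0.29, adjusted p = 0.00083). Its partner mfs1 had 50.6 and 52.2 CPM in S2A and 112 and 102 CPM in WT (-1.06 ± 0.17, adjusted p = 0.00184), and both calls held without any single library. SPNCRNA.1461 (chrII:1756425-1757286, plus strand), nested in pfd1, a prefoldin chaperone subunit gene, ran the other way. It had 5.7 and 6.27 CPM in S2A and 17.5 and 24.1 CPM in WT (-1.80 ± 0.32, adjusted p = 0.00338), and pfd1 had 130 and 119 CPM in S2A and 71.6 and 78.8 CPM in WT (0.73 ± 0.15, adjusted p = 0.00754), the partner's call being lost without S2A replicate 1 (adjusted p = 0.0659) or WT replicate 1 (adjusted p = 0.0732).

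**Figure D5:**
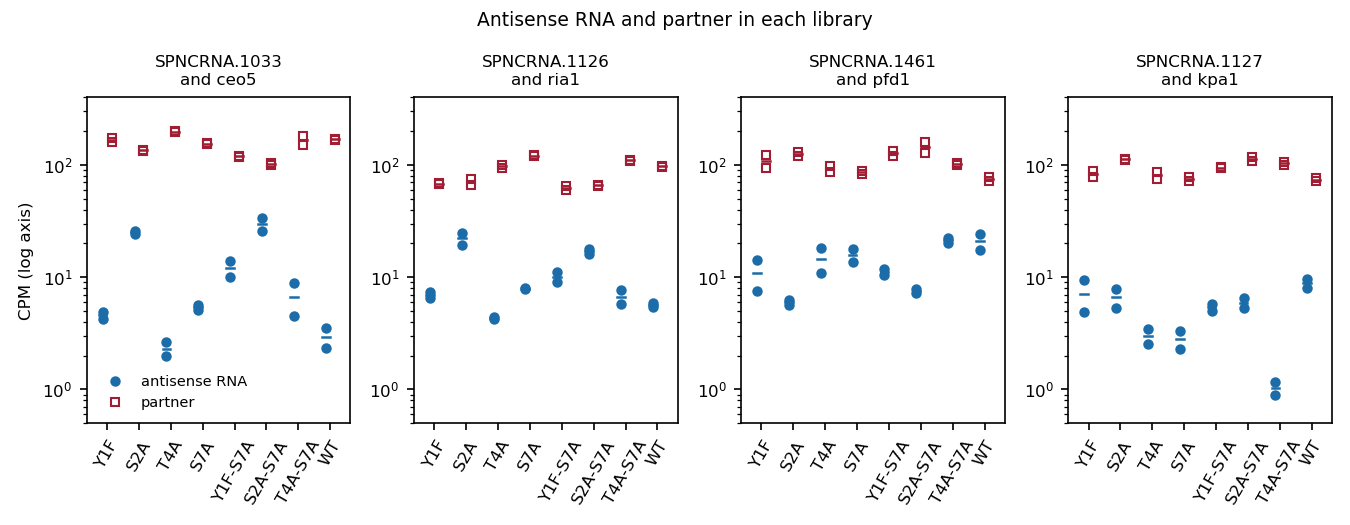
CPM of 4 antisense RNAs (filled circles) and their partners (open squares) in each of the 2 libraries of 8 strains, with strain means as bars, on a log axis. In S2A-S7A, SPNCRNA.1033 and SPNCRNA.1126 lie above and ceo5 and ria1 below WT, in S2A SPNCRNA.1461 lies below and pfd1 above WT, and SPNCRNA.1127 is lowest in T4A-S7A, at 1.16 and 0.897 CPM.

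Other pairs moved together, 13 of them with both sides higher in S2A-S7A over S7A. There 165 RNAs rose and had a tested partner, and 7.62% of all features rose. SPNCRNA.1302, inside the enolase gene eno102, had 23.6 and 28.2 CPM in S2A-S7A and 8.52 and 10.3 CPM in S7A (1.46 ± 0.26, adjusted p = 0.00374), and eno102 had 20.9 and 38.5 CPM in S2A-S7A and 5.03 and 5.39 CPM in S7A (2.51 ± 0.45, adjusted p = 0.00374). SPNCRNA.781 and SPNCRNA.782 are each other's partner, so they enter the 13 from both sides. Both rose over S7A, by 2.07 ± 0.37 and 2.59 ± 0.48 (adjusted p = 0.00338 and 0.00399). SPNCRNA.632, inside tra2, a NuA4 histone acetyltransferase subunit gene, had 13.3 and 7.45 CPM in S2A and 0.411 and 0.258 CPM in WT (4.94 ± 0.61, adjusted p = 0.00029), and tra2 had 108 and 82.7 CPM in S2A and 45.7 and 42.1 CPM in WT (1.12 ± 0.25, adjusted p = 0.0125), the call of tra2 being lost without S2A replicate 1 (adjusted p = 0.108), WT replicate 1 (adjusted p = 0.0654) or WT replicate 2 (adjusted p = 0.0912).

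In Y1F-S7A against WT, 80 antisense RNAs rose and 19 fell, where 3.74% of all features rose and 3.47% fell, and the median was 0.26. The 99 calls became 50, 32, 39 and 31 without Y1F-S7A replicate 1, Y1F-S7A replicate 2, WT replicate 1 and WT replicate 2. In all 4 of those fits 18 were called. With the replicate block 216 were called, or 28.5% of the 759, beside 24.9% of all features. Nested RNAs made up 45 of the 80, and 74 nested RNAs rose with the block. SPNCRNA.1529 at orc1 had 23.2 and 35.6 CPM in Y1F-S7A and 2.38 and 3.95 CPM in WT (3.21 ± 0.32, adjusted p = 0.00031). SPNCRNA.560 (chrI:3104356-3105524, plus strand), inside the autophagy gene atg1801, had 13.1 and 17.1 CPM in Y1F-S7A and 2.51 and 3.61 CPM in WT (2.30 ± 0.28, adjusted p = 0.00095). SPNCRNA.1026 (chrI:4814239-4817443, plus strand), inside fus1, the formin gene of cell fusion, had 29.4 and 22.5 CPM in Y1F-S7A and 5.03 and 5.46 CPM in WT (2.31 ± 0.26, adjusted p = 0.00059). SPNCRNA.613 fell furthest, with 2 and 1.13 CPM in Y1F-S7A and 13.3 and 17.5 CPM in WT (-3.27 ± 0.41, adjusted p = 0.00121). SPNCRNA.609 (chrI:131203-135541, plus strand) fell together with its partner SPAC11D3.14c, the RNA to 9.54 and 7.22 CPM in Y1F-S7A against 37.8 and 34.5 CPM in WT (-2.10 ± 0.28, adjusted p = 0.00158) and the partner to 5.4 and 5.44 CPM against 28.8 and 33 CPM (-2.51 ± 0.25, adjusted p = 0.00031). The upstream gene on the RNA's strand, hsp3104, which touches its annotation, fell as well (-2.96, adjusted p = 0.00057).

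In Y1F against WT 16 antisense RNAs rose and 15 fell, 2.11 and 1.98% of the 759, beside 1.29 and 1.67% of all features, and 11 of the 16 were nested in their partner. The 31 calls became 12, 11, 8 and 13 without Y1F replicate 1, Y1F replicate 2, WT replicate 1 and WT replicate 2, and SPNCRNA.293, SPNCRNA.1311, SPNCRNA.1312 and SPNCRNA.1316 were the 4 called in every such fit. The block called 106, or 14.0% of the 759, close to the 12.6% of all features. SPNCRNA.1312 (chrII:123704-126325, minus strand), inside the ABC transporter gene abc3, had 1.4 and 1.16 CPM in Y1F and 11.9 and 9.89 CPM in WT (-3.09 ± 0.44, adjusted p = 0.0036), and abc3 had 23.1 and 22.2 CPM in Y1F and 50.5 and 45 CPM in WT (-1.08 ± 0.20, adjusted p = 0.0182). The partner's call was lost without any one of the 4 libraries, at adjusted p values from 0.057 to 0.112. SPNCRNA.1311 and SPNCRNA.293 share most of their length, and so their reads, opposite the flocculin-like gene pfl7. SPNCRNA.1311 had 0.0483 and 0 CPM in Y1F and 3.56 and 2.84 CPM in WT, and pfl7 had 0.483 and 0.357 CPM in Y1F and 9.78 and 7.31 CPM in WT (-4.33 ± 0.47, adjusted p = 0.00113). In all 8 pairs with both sides called in Y1F against WT, the RNA and the partner fell together. Those of SPNCRNA.1311 and SPNCRNA.293 with pfl7 are counted separately among them. With the replicate block 26 pairs had both sides called, of which 15 fell together, 4 rose together and 7 were opposite.

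In S7A against WT 8 antisense RNAs rose and 15 fell, where 0.997% of all features rose and 0.717% fell. The 23 calls became 1, 2, 5 and 3 without S7A replicate 1, S7A replicate 2, WT replicate 1 and WT replicate 2. None was called in all 4 of those fits. With the block 75 were called, or 9.88% of the 759, close to the 8.1% of all features. SPNCRNA.1158 and its partner gnr1 were the 1 opposite pair. SPNCRNA.1158 had 28.7 and 38.3 CPM in S7A and 69.8 and 76.5 CPM in WT (-1.13 ± 0.21, adjusted p = 0.0208), a call lost without any one library (adjusted p from 0.0673 to 0.196), and gnr1 had 21.5 and 21.3 CPM in S7A and 11.2 and 9.71 CPM in WT (1.03 ± 0.14, adjusted p = 0.00663), a call lost without S7A replicate 1 (adjusted p = 0.053) or WT replicate 2 (adjusted p = 0.0583). The partner gnr1 was higher than WT by the test in all 7 mutants, by 0.72 to 1.48, each against the same 2 WT libraries.

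In T4A most antisense RNAs lay below WT, and none was called. Of the 759 RNAs, 0 rose and 0 fell in T4A against WT by edgeR's quasi-likelihood test, beside 0.0156% and 0.0779% of all features. At an unadjusted p under 0.05, 129 passed, where 492 of all 6420 features did. DESeq2 called 13 of the RNAs, and its share of all features is not given here. The median was -0.29, with 217 of 759 above 0, where all features had a median of 0.01. Non-coding RNAs with no antisense partner had a median of -0.43, with 42 of 241 above 0. With the replicate block 3 rose and 21 fell, together 3.16% of the 759, beside 1.64% of all features called. In T4A-S7A against WT 14 rose and 31 fell, beside 1.11% and 1.68% of all features, and the median was -0.14. These 45 calls became 16, 14, 10 and 12 without T4A-S7A replicate 1, T4A-S7A replicate 2, WT replicate 1 and WT replicate 2, with 6 called in all 4. With the block 120 were called, or 15.8% of the 759, beside 10.9% of all features.

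SPNCRNA.1127 (chrIII:294475-295295, minus strand), at the 3' end of kpa1, had 1.16 and 0.897 CPM in T4A-S7A and 8 and 9.67 CPM in WT (-3.08 ± 0.39, adjusted p = 0.00171), a call that held without any one library. Its partner kpa1 had 100 and 107 CPM in T4A-S7A and 76.1 and 72.3 CPM in WT (0.48 ± 0.11, adjusted p = 0.0421), a call lost without any one library (adjusted p from 0.133 to 0.267). SPNCRNA.1674 and SPNCRNA.113, which overlap on 1 strand of chromosome II and share the partner SPNCRNA.1673, fell together with it. SPNCRNA.1674 (chrII:4129574-4130925, plus strand) had 4.25 and 3.06 CPM in T4A-S7A and 23.6 and 29.8 CPM in WT (-2.85 ± 0.32, adjusted p = 0.00088), and SPNCRNA.1673 had 2.41 and 5.07 CPM in T4A-S7A and 15.9 and 18.4 CPM in WT (-2.22 ± 0.41, adjusted p = 0.0158), the partner's call being lost without T4A-S7A replicate 1 (adjusted p = 0.114), WT replicate 1 (adjusted p = 0.0629) or WT replicate 2 (adjusted p = 0.0769). Of the 31 RNAs that fell in T4A-S7A, 22 had a feature upstream on the same strand within 500 bases, as 301 of all 759 tested did, and 10 of those 31 upstream features fell by the test, beside 23 of the 723 upstream features of all tested RNAs. SPNCRNA.1454 (chrII:1695093-1696776, minus strand), inside SPBC19C2.10, was the RNA with the smallest adjusted p among the 14 that rose, with 15.1 and 19.1 CPM in T4A-S7A and 3.93 and 6.19 CPM in WT (1.75 ± 0.26, adjusted p = 0.00586), a call lost without WT replicate 1 (adjusted p = 0.061).

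The nearest feature upstream on the same strand was followed beside each antisense RNA. A feature that starts before the RNA and overlaps it counts as upstream, at a distance of 0. Its reads may then be shared with the RNA. Of the 185 that rose in S2A, 175 had an upstream feature that was tested, and 21 of those rose and 11 fell, with a median of -0.02. Of the 183 such features for RNAs that rose in S2A-S7A against WT, 23 rose and 17 fell. For all 723 upstream features tested, 66 rose and 40 fell in S2A, and 84 rose and 63 fell in S2A-S7A. Of the RNAs that fell, the upstream feature also fell for 6 of 24 in S2A and for 7 of 21 in S2A-S7A against WT. It fell for 7 of 18 in Y1F-S7A, beside 37 of 723, and for 6 of 15 in Y1F, beside 17 of 723. Within 500 bases of an upstream feature, 63 of 301 tested RNAs rose in S2A, and beyond it 122 of 457 did. AATAAA, the consensus polyadenylation hexamer, stood on the RNA's strand in the last 60 bases of 19.5% of those that rose in S2A and 17.0% of those not called, and 18.0% of all nuclear features. TNAAAC, the core motif bound by the RNA elimination factor Mmi1, was present in 85.4% of those that rose and 82.3% of those not called, and in 86.2% of all nuclear features, on the RNA's strand and with overlapping matches counted, in features of unequal length.

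Factors known to limit antisense or unstable RNA were followed as a list of 41 genes, among them exosome subunits, the Mmi1 and Mtl1 complexes, RNA interference and heterochromatin genes, the Clr6 deacetylase complex and the FACT and Spt6 histone chaperones. All 41 were tested. In S2A against WT 2 rose and none fell, in S2A-S7A against WT 1 rose and 4 fell, in S2A-S7A against S7A 1 rose and 4 fell, in Y1F against WT 1 rose, and in Y1F-S7A against WT 1 rose and 2 fell. In T4A, S7A and T4A-S7A against WT none passed edgeR's test, with 3, 5 and 1 at an unadjusted p under 0.05. Of all 6420 features, 492, 776 and 894 stood under that unadjusted p. With the replicate block, 5 rose and 6 fell in S2A, 5 and 11 in S2A-S7A against WT, and 5 and 15 in S2A-S7A against S7A. As a share of the 41, 4.88% were called in S2A, 12.2% in S2A-S7A against WT and 12.2% against S7A, beside 11.9%, 16.5% and 14.1% of all features. With the block those shares were 26.8%, 39.0% and 48.8%, beside 29.4%, 37.9% and 33.4%. Of the calls without the block, the 2 of rmn1, a gene of meiotic RNA elimination, were the ones that held without any one library, at -0.54 ± 0.09 in S2A-S7A against WT (adjusted p = 0.0024) and -0.58 ± 0.09 against S7A (adjusted p = 0.00202). red1, a scaffold of nuclear RNA elimination, had log2 fold changes over WT of 0.38 to 0.49, each ± 0.10, in all 7 mutants. These 7 values share the same 2 WT libraries and are not independent. In S2A-S7A against S7A, which uses no WT library, red1 was at 0.08 ± 0.10 (adjusted p = 0.676). It passed in Y1F (0.47), S2A (0.42), Y1F-S7A (0.44) and S2A-S7A (0.49) and not in T4A (0.40), S7A (0.41) or T4A-S7A (0.38). With 1 library left out, its calls in Y1F and Y1F-S7A were lost in all 4 fits (adjusted p from 0.0929 to 0.204 and from 0.0809 to 0.148), that in S2A was left in 1 (highest adjusted p = 0.155) and that in S2A-S7A in 2 (highest adjusted p = 0.0694). hrp1, a chromatin remodeller gene, was at -0.68 ± 0.14 in S2A-S7A against WT (adjusted p = 0.00782, and 0.062 without WT replicate 1). rrp6, the nuclear exosome nuclease gene, passed in no comparison. Their part in the levels of the antisense RNAs was not tested.

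The effect of S2A was also compared between the strains with and without S7A, as the S2A-S7A minus S7A difference less the S2A minus WT difference. By this test 7 of the 759 antisense RNAs passed, all with a difference above 0, where 0.483% of all features were called, and 42 passed with the replicate block, 24 of them with a difference above 0, where 3.64% of all features were called. For Y1F no RNA passed, with 78 at an unadjusted p under 0.05 and 0% of all features called, and for T4A none passed, with 66 at an unadjusted p under 0.05 and 0.0156% of all features called. The unadjusted counts over all features are not given for these tests. With the block 11 passed for Y1F, beside 1.15% of all features, and 4 for T4A, beside 0.374%. One of the 7 was SPNCRNA.67 (chrIII:1431135-1433068, plus strand), inside epe1, which encodes a JmjC protein that opposes heterochromatin. It had 21.8 and 26.2 CPM in S2A-S7A against 2.79 and 2.84 CPM in S7A, and 15.2 and 17 CPM in S2A against 7.22 and 7.78 CPM in WT. The first difference was 3.09 ± 0.21 (adjusted p = 1.3e-05), the second 1.10 ± 0.19 (adjusted p = 0.00289), and their difference 1.99 ± 0.28 (adjusted p = 0.0174). The 2 S7A libraries were the lowest of the 16 for this RNA, and all 4 libraries with S2A lay above both of WT. So did the libraries of Y1F (13.9 and 15.6 CPM) and Y1F-S7A (14.1 and 18.1 CPM). Leaving out single libraries was not run for this difference, but each of the 2 effects of S2A was called without any one of its libraries.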

How the data were processed

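Polyadenylated RNA of 8 strains with 2 cultures each was measured as 16 libraries. The authors deposited raw counts per feature and library. The aligner was Bowtie, version 0.12.7, per the submitters' processing notes. Which genome build, annotation and counting tool went into these counts is not given in the sources used here. That table holds, beside the counts, log2 expression values and the authors' log2 fold changes and adjusted p-values from DESeq, per the file headers, and none of these was used for a result. All fits used edgeR 4.0.16 under R 4.3.3: the low-count filter by strain, TMM factors, a quasi-likelihood fit over all 16 libraries with strain as the term, and Benjamini-Hochberg adjustment over 6420 features, called at an adjusted p under 0.05. Every adjusted p and every value after ± (a standard error) comes from this fit unless another is named. Libraries held 18677921 to 31254978 counts, and the biological coefficient of variation was 19.3%. CPM is scaled by the TMM factors, and RPKM divides it by the feature's width.

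Alternatives were RLE factors, no filter, the replicate number as a block, the compared strains alone, DESeq2 1.42.0, each library left out, and leaving out RNAs under 2% of their partner. Deviations of same-numbered libraries from their strain means correlated at 0.245 to 0.667 over the 28 pairs of strains. The numbers, which come from the library titles, were therefore taken to pair libraries. The main fit leaves that pairing out, so its calls and standard errors do not use it, while the fit with the block does.

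RNAs were named by rule: in S2A and S2A-S7A against WT the 6 highest and 6 lowest, elsewhere the 4 highest and 4 lowest, log2 fold changes among called RNAs whose log2 CPM averaged 2 or more and with libraries that do not overlap, then up to 4 opposite and 4 alike pairs a comparison, the 5 highest levels and the 5 smallest joint p-values. Part of them is printed, preferring those called without any one library. The members and lists were chosen with earlier results of these data known. The tests of a difference between effects of S2A, the overlap of S2A with S2A-S7A over S7A, and the upstream features were added after seeing the data. Of the 831 RNAs, 770 matched RefSeq by locus tag, 8 by synonym and 53 did not. The fits were tested on simulated counts. One named pair is not reported here.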

Additional observations from a re-analysis of the deposited data

Results flagged for a closer look

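The 7 RNAs whose log2 effect of S2A differed by edgeR's test between the strains with S7A (S2A-S7A over S7A) and without it (S2A over WT) are given here with that difference. Mating type changes in the second effect and not in the first, so the difference cannot be told apart from mating type. SPNCRNA.69, antisense to the meiotic recombination gene rec7, had 51.5 and 49.6 CPM in S2A-S7A against 34.1 and 30.2 CPM in S7A, and 24.5 and 24.3 CPM in S2A against 35.7 and 40.1 CPM in WT, a difference of 1.29 ± 0.18 (adjusted p = 0.0174). SPNCRNA.67, inside epe1, had a difference of 1.99 ± 0.28 (adjusted p = 0.0174). SPNCRNA.1488 had 20.8 and 24.9 CPM in S2A-S7A against 26 and 35.4 CPM in S7A, and 5.73 and 9.66 CPM in S2A against 45.8 and 59.4 CPM in WT, a difference of 2.35 ± 0.35 (adjusted p = 0.0174). Its change in S2A-S7A over S7A did not pass (-0.43 ± 0.24, adjusted p = 0.288, and 0.0312 with the replicate block).

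SPNCRNA.1674 had 28.7 and 43.1 CPM in S2A-S7A against 5.54 and 8.57 CPM in S7A, and 19 and 20.5 CPM in S2A against 23.6 and 29.8 CPM in WT, a difference of 2.79 ± 0.42 (adjusted p = 0.0174). SPNCRNA.113 lies within SPNCRNA.1674 on the same strand and may share its reads, and its difference was 3.25 ± 0.51 (adjusted p = 0.0185). SPNCRNA.861, antisense to SPNCRNA.862, had 12.7 and 17 CPM in S2A-S7A against 6.13 and 3.87 CPM in S7A, and 6.21 and 5.91 CPM in S2A against 9.69 and 10.2 CPM in WT, a difference of 2.27 ± 0.38 (adjusted p = 0.0255). SPNCRNA.606, antisense to the spore wall gene isp3, had 2.84 and 2.62 CPM in S2A-S7A against 0.587 and 0.392 CPM in S7A, and 0.921 and 1.17 CPM in S2A against 2.65 and 1.63 CPM in WT, a difference of 3.48 ± 0.66 (adjusted p = 0.0458).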

How the results depend on the processing

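With the replicate block, counts of called RNAs were 320 in S2A, 344 in S2A-S7A, 106 in Y1F, 216 in Y1F-S7A, 24 in T4A, 120 in T4A-S7A and 75 in S7A against WT and 276 for S2A-S7A against S7A, and 11, 42 and 4 for the differences beside S7A of Y1F, S2A and T4A. Fits of the compared strains alone, which leave fewer samples, gave 4 in Y1F, 0 in S7A, 45 in Y1F-S7A, 95 in S2A-S7A, 17 in T4A-S7A and 116 in S2A-S7A against S7A. DESeq2 gave 73 in Y1F, 13 in T4A, 59 in S7A, 164 in Y1F-S7A and 88 in T4A-S7A. Counts over all features are not given for those fits or for leaving out libraries. These counts are therefore no measure against other features. With 1 library left out, counts ran from 8 to 13 in Y1F, 129 to 150 in S2A, 0 to 1 in T4A (1 without WT replicate 2), 1 to 5 in S7A, 31 to 50 in Y1F-S7A, 116 to 179 in S2A-S7A, 10 to 16 in T4A-S7A and 83 to 153 in S2A-S7A against S7A. Median log2 fold changes then ran from 0.0072 to 0.1528 in Y1F, 0.4053 to 0.5365 in S2A, -0.389 to -0.2395 in T4A, 0.0046 to 0.0791 in S7A, 0.2379 to 0.3342 in Y1F-S7A, 0.3855 to 0.6899 in S2A-S7A, -0.166 to -0.099 in T4A-S7A and 0.3225 to 0.582 in S2A-S7A against S7A. Other medians moved by little: 0.4301 in S2A and -0.1344 in T4A-S7A with no filter, 0.0544, 0.0399 and 0.0494 in S7A and 0.276, 0.2811 and 0.2791 in Y1F-S7A with RLE factors, no filter and the replicate block. No median changed sign in any of these. Opposite pairs with the block were 7 in Y1F, 55 in S2A, 1 in T4A, 7 in S7A, 43 in Y1F-S7A, 94 in S2A-S7A, 7 in T4A-S7A and 63 in S2A-S7A against S7A, and with DESeq2 2 in Y1F, 22 in S2A, 17 in Y1F-S7A and 29 in S2A-S7A against S7A. With 1 library left out they ran from 3 to 8 in S2A, 0 to 0 in S7A and Y1F-S7A, 9 to 21 in S2A-S7A, 0 to 1 in T4A-S7A and 5 to 12 in S2A-S7A against S7A. The 98 calls of named RNAs all held with DESeq2, RLE factors and the replicate block, 97 held without the filter and 70 with the compared strains alone. With 1 library left out, each call was counted once in each of its 4 fits. Over all those fits it held in 269 cases and was lost in 123, none with a changed direction. With 2 cultures a strain and a median near 4.31 RPKM, a fold that misses the threshold was not detectable at this depth, and does not show that levels were alike.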
